A study of Mus musculus with 4 samples.

Results

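Ccl3, Ccl4, Ccl5 and Xcl1 are genes for chemokines, and Ccr1 is the gene for a chemokine receptor. They were taken by symbol as 5 of the 31053 features measured by droplet single-cell sequencing of immune cells sorted out of tumours. The tumours were grown from TC-1, a mouse lung epithelial line with tumour-forming ability. Wild-type C57/bl6 mice carried tumours from 300000 TC-1 cells placed under the skin, and received PBS or a single intraperitoneal dose of cisplatin (6 mg/kg), a platinum drug that damages DNA, once the tumour had reached 40 mm². There were 4 libraries, of which 1 came from the PBS group and the other 3 from cisplatin-treated mice at day 1, 3 or 7 (1 library per day). For PBS, no collection day is stated and another field names the source as untreated, and the number of pooled mice is not stated for any library. All libraries share the strain, the tumour line and the sort for CD45+, lineage-negative, CD90+ and CD127+ cells, a gate for innate lymphoid cells, so day, tumour age, sort and library cannot be told apart from treatment.

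Chemokines are small secreted proteins that steer leukocytes by engaging G protein-coupled receptors on the cells they attract. Ccl3, Ccl4 and Ccl5 belong to the CC family and are made by activated macrophages, NK cells and T cells. Ccr1, a receptor for Ccl3, Ccl5 and several other CC chemokines, is carried by monocytes, macrophages and other leukocytes. Xcl1 is a C chemokine made mainly by NK cells and activated T cells, and its receptor Xcr1 marks the conventional dendritic cells that cross-present antigen.

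The family names refer to the cysteines of the mature protein, so the coding sequences of Ccl3, Ccl5 and Xcl1 are shown with their in-frame cysteine codons in capitals. They are given 5′ to 3′ from the start codon, as the coding strand, read from mm10 with the GENCODE vM21 annotation, and Xcl1 is shown for its first 300 of 342 bases.
Ccl3: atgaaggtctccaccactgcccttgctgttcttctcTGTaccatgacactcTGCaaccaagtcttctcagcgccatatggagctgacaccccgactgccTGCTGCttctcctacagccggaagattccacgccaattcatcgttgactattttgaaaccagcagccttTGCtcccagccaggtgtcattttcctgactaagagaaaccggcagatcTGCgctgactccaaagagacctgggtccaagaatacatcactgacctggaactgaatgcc
Ccl5: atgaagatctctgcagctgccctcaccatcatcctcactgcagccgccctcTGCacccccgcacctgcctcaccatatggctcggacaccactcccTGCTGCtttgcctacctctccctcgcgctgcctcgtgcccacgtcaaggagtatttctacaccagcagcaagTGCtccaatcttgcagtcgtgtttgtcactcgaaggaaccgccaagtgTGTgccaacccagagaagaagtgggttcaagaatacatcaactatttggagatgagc
Xcl1: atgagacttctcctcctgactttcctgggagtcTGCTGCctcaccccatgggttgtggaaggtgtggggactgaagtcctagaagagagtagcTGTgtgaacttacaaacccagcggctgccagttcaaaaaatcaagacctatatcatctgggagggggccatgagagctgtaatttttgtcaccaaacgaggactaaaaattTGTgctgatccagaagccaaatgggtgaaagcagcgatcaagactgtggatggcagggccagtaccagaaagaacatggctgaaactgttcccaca
Counting codons from 1 at the start codon, the adjacent pair of cysteine codons that gives the CC family its name lies at 34 and 35 in Ccl3 and at 33 and 34 in Ccl5. Xcl1 has its adjacent pair at codons 12 and 13, in the leader that is removed from the secreted protein, and after it only codons 32 and 69 encode cysteine. Aligned codon by codon, Ccl3 and Ccl5 were identical at 61.5% of bases, and Ccl3 and Xcl1 at 46.0%.

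The positions are on mm10. Ccl3 (ENSMUSG00000000982, 3 exons, minus strand) lies at chr11:83647844-83649355. Ccl5 (ENSMUSG00000035042, 3 exons, minus strand) lies at chr11:83525778-83530518, 117325 bases from Ccl3. Xcl1 (ENSMUSG00000026573, 3 exons, minus strand) lies at chr1:164931644-164935527 inside the gene model Gm20743 on the opposite strand, which is not among the features analysed here. Ccr1 (ENSMUSG00000025804, 2 exons, minus strand) lies at chr9:123962124-123968692.

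The libraries held 10063 (PBS), 10745 (day 1), 6264 (day 3) and 2981 (day 7) barcodes, of which 7425, 6841, 4715 and 2705 cells were kept, with medians of 6162, 8769, 6045 and 5039 unique molecular identifiers (UMIs, counted transcript molecules) per cell. Any 2 libraries shared between 4 and 32 barcode sequences, at most 0.511% of the smaller one. The sort label and the transcripts differ: Ptprc, which encodes CD45, was seen in 58.6% to 90.6% of kept cells, but Thy1, which encodes CD90, was seen in 4.24% to 16.4% and Il7r, which encodes CD127, in 6.62% to 37.8%. Cells were placed in gates by UMIs of lineage genes, and none of the 5 genes was used. The macrophage gate (no Cd3 or NK transcript, over 1% of UMIs from 12 macrophage markers) held 84.4%, 64.6%, 58.6% and 73.0% of the kept cells. C1qa, itself among these 12 gate markers, was seen in 97.1% to 99.6% of it. The 5 lymphoid gates (regulatory T, gamma-delta T, CD8 T, other T, and NK with ILC1) held 168, 316, 577 and 133 cells, or 2.26%, 4.62%, 12.2% and 4.92%. A mixed gate of 111, 649, 330 and 114 cells held lymphoid transcripts together with over 1% macrophage markers. The remaining ungated cells numbered 815, 1292, 899 and 438.

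Levels are UMIs per 1000000 UMIs (CPM) summed over the cells of a gate, and bracketed ranges are 95% intervals of the counting error only and leave out differences between mice or sorts. With 1 library per group there is no replicate check and no test. The 3 comparisons use the same PBS library.

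Over all kept cells, Ccl5, a ligand made by memory and effector lymphocytes and by activated macrophages, stood furthest from PBS of the 5 genes on days 1 and 3, and Xcl1 on day 7. Its level was 99.5 CPM (96.7 to 102) after PBS, 316 on day 1, 1280 on day 3 and 510 on day 7, or 3.18-fold, 12.9-fold and 5.13-fold the PBS level. Xcl1 was at 9.73 CPM (8.89 to 10.6), 21.8 (20.7 to 22.9), 84.9 and 71.9, or 2.24-fold, 8.73-fold and 7.40-fold. Every cisplatin library was above PBS for both genes, with intervals that did not overlap. Ccl4 was at 482, 533, 1494 and 770 CPM, close to PBS on day 1 (1.10-fold) and furthest from it on day 3 (3.1-fold). Ccl3 was at 383, 344, 577 and 275 CPM, below PBS on days 1 and 7 (0.899-fold and 0.719-fold) and 1.51-fold higher on day 3. Ccr1 was at 109, 161, 163 and 102 CPM, about 1.5-fold higher on days 1 and 3 (1.48-fold and 1.5-fold) and 0.943-fold on day 7. Day 3 was the highest library for all 5 genes, although for Ccr1 days 1 and 3 did not differ beyond counting error (log2 ratio 0.01, -0.03 to 0.06).

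Read as counts, 2 of the 5 genes were at least 2-fold higher than PBS on day 1 (Ccl5 and Xcl1), against 8.04% of the 12873 genes with at least 50 UMIs over the 2 libraries. With doublets kept, the Xcl1 log2 ratio on day 1 was 0.96 in place of 1.16, under 2-fold. On day 3 the count was 3 of 5 (Ccl4 in addition) against 10.6%, and on day 7 it was 2 of 5 against 11.1%. None of the 5 was 2-fold lower on any day, where 1.56%, 7.12% and 3.56% of all genes were. The median log2 ratio of the 5 genes was 0.57, 1.63 and 0.68, beside 0.12, -0.04 and -0.01 for all genes. On day 1 the median of all genes was itself shifted by 0.12, and relative to it Ccl4 (log2 ratio 0.14) was level with PBS. These genes were chosen with results of the same libraries known, so the counts describe them and are no sample of genes.

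The cells that held the transcripts differed by gene. Pooled over the 4 libraries, the macrophage gate held 79.1% of Ccl3 UMIs (78.8 to 79.4), 77.1% of Ccl4, 76.5% of Ccr1, 59.0% of Ccl5 and 5.87% of Xcl1 (5.28 to 6.51). These shares stand beside the size of the gate, which held 82.3%, 64.25%, 59.1% and 71.0% of all UMIs after PBS and on days 1, 3 and 7. For Ccl5 the level of the gate was below that of all kept cells in every library. The values were 88.4 against 99.5, 276.5 against 315.9, 1261 against 1280 and 435.5 against 510.1 CPM. For Ccl3, Ccl4 and Ccr1 the gate was above all kept cells in every library. The lymphoid gates held 0.954%, 2.68%, 8.31% and 2.43% of all UMIs. The 5 lymphoid gates held 35.6% of Xcl1 and 8.06% of Ccl5, but 1.42% of Ccl3, 1.96% of Ccl4 and 1.28% of Ccr1. NK and ILC1 cells alone held 23.0% of Xcl1. The mixed gate held a further 29.6% of Xcl1, and ungated cells 26.8%. The order differed between libraries for Xcl1, with ungated cells first after PBS (57.1%) and on day 7 (45.9%), the mixed gate first on day 1 (49.0%), and the lymphoid gates first on day 3 (47.7%). Migratory dendritic cells, which carry antigen to lymph nodes and were gated on Ccr7 and Fscn1, numbered 21, 77, 72 and 2 cells and held 5.34% of Ccl5.

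**Figure D1:**
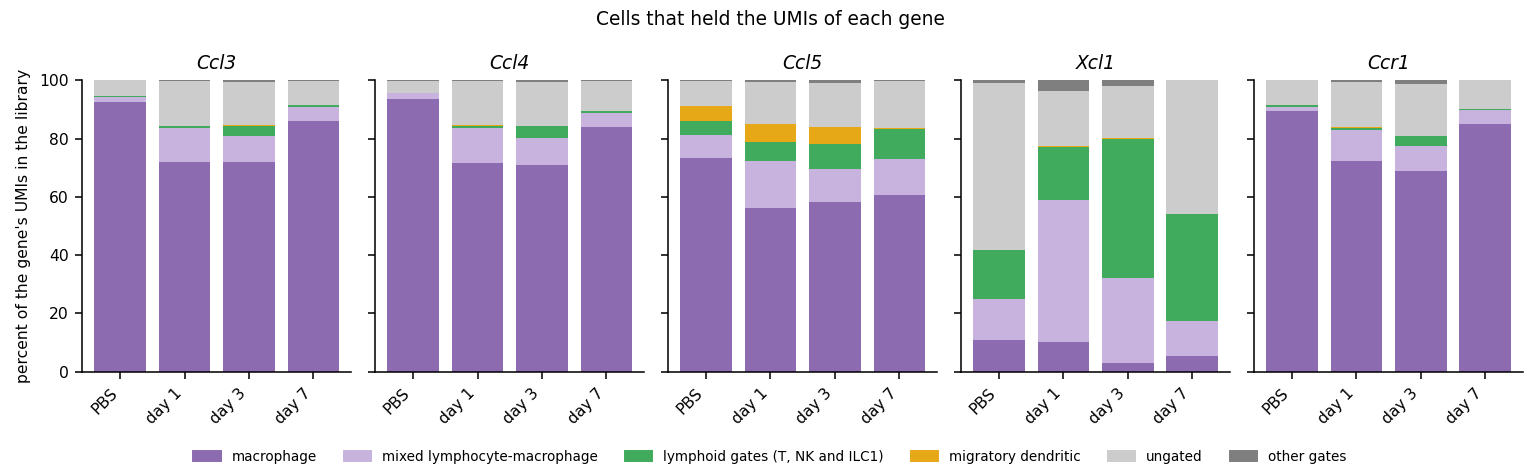
Share of each gene's UMIs held by each gate (y axis, percent of the gene's UMIs in that library) in the 4 libraries (x axis). Macrophage-gate cells hold most Ccl3, Ccl4, Ccl5 and Ccr1 in every library, while Xcl1 lies mainly in lymphoid, mixed and ungated cells. The macrophage gate held 59.1% to 82.3% of all UMIs of a library, and its Ccl5 level was below that of all kept cells in each.

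Within the macrophage gate the ligands kept separate time courses. Ccl3, a ligand of Ccr1, was at 430 CPM (424 to 436) after PBS, then at 386 (380 to 392), 703 (691 to 715) and 334 CPM (323 to 345) at the 3 cisplatin times. Only day 3 stood above PBS. Ccl4 was at 549, 594, 1791 and 912 CPM, which is a log2 ratio to PBS of 0.11 (0.09 to 0.14), 1.71 (1.68 to 1.73) and 0.73 (0.70 to 0.77). Ccl5 was at 88.4 CPM (85.6 to 91.3), 277, 1261 and 436, which is a log2 ratio of 1.65, 3.83 (3.78 to 3.88) and 2.30. Of Ccl3, Ccl4 and Ccl5, Ccl5 had the largest ratio in macrophages on each day. At 2-fold, 2 of the 5 genes were higher in this gate on day 1 (Ccl5 and Xcl1) against 4.55% of all genes, 3 on day 3 (Ccl4 in addition) against 7.77%, and 2 on day 7 against 5.58%. At 1.5-fold, 5 of the 5 were higher on day 3, against 15.1% of all genes. None was 2-fold lower, where 2.37%, 7.76% and 5.37% of all genes were. The counts of higher genes on every day include Xcl1, which rests on few UMIs in this gate (54 after PBS, then 145, 82 and 58). The part of lymphoid RNA in them was not tested. On day 1 Xcl1 had a log2 ratio of 1.40 there and was under 2-fold with doublets kept (0.56) or with a mitochondrial limit of 20% (0.84).

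**Figure D2:**
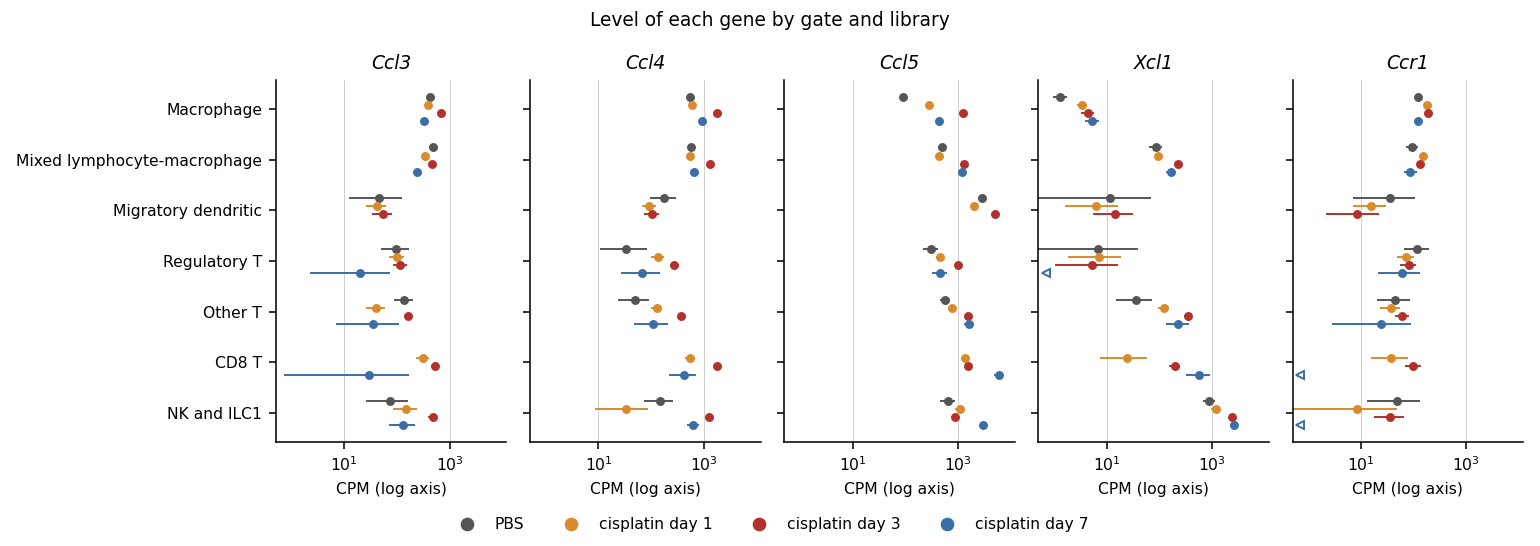
Level of each gene (x axis, CPM, log axis) by gate (y axis) and library (colour), with 95% Poisson intervals of the counts and open triangles for gates with 0 UMIs. Gates with under 10 cells are left out, and Ccr1 in macrophages is among its highest levels while Xcl1 is highest in NK and ILC1 cells.

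Detection was compared after each cell was thinned to 2000 UMIs so that depth was equal, which left out 252, 165, 190 and 205 shallower macrophage-gate cells. Ccl5 was then detected in 5.42% (4.86 to 6.03) of macrophage-gate cells after PBS, 15.6% on day 1, 48.6% on day 3 and 18.5% on day 7, and unthinned in 10.95%, 37.2%, 70.02% and 30.6%. Ccl4 was detected in 35.1%, 33.7%, 61.9% and 40.96%, and Ccl3 in 35.8%, 33.5%, 46.8% and 29.3%. Day 3 was highest for all 3 ligands, while on day 1 Ccl4 was slightly above PBS by level and slightly below it by detection. As a measure of free RNA, Trbc2, a T cell receptor gene that macrophages should lack, was detected in 0.416%, 1.97%, 1.40% and 0.622% of the same thinned cells. The Ccl5 UMIs in the gate numbered 10.6, 11.5, 27.1 and 21.3 per UMI of the 3 lymphoid genes Nkg7, Ms4a4b and Trbc2, where the lymphoid gates had 0.419, 0.569, 0.504 and 0.588. The gate had left out 183, 765, 371 and 111 cells with over 1% macrophage markers because they held 1 Cd3 or NK UMI. This can lower the Trbc2 rate and raise the Ccl5 UMIs per lymphoid UMI. Migratory dendritic cells also hold Ccl5, and the part of free RNA in the macrophage values was not tested.

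**Figure D3:**
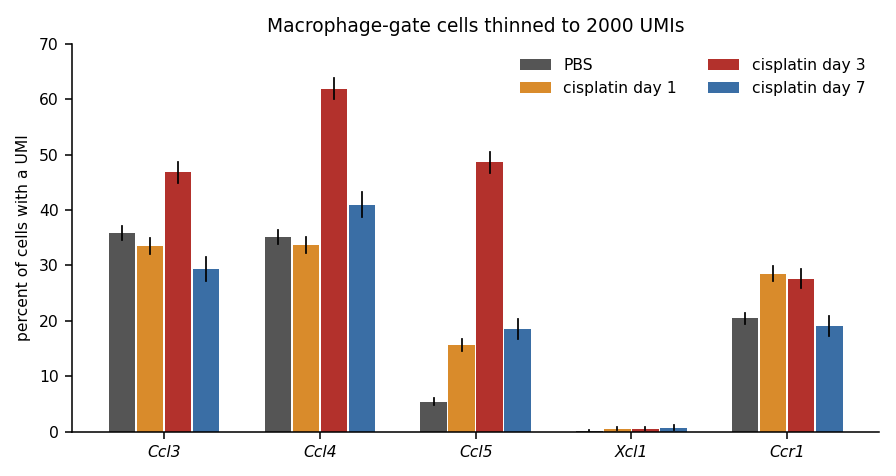
Percent of macrophage-gate cells with at least 1 UMI of each gene (y axis) after thinning every cell to 2000 UMIs, with exact binomial 95% intervals. Ccl5 goes from 5.42% after PBS to 48.6% on day 3, and Xcl1 stays under 1% in all 4 libraries.

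Ccl4 was detected more often in cells with Ccl3 than in cells without it. Among thinned macrophage-gate cells with Ccl3, Ccl4 was detected in 54.2%, 51.9%, 77.1% and 62.0%, and among those without Ccl3 in 24.5%, 24.5%, 48.6% and 32.3%. For Ccl5, cells with Ccl4 had it in 7.10%, 20.9%, 52.0% and 22.1% and cells without Ccl4 in 4.51%, 13.0%, 43.1% and 16.0%. The ratio of these 2 ligands changed with the day. The macrophage gate held 1.28 Ccl4 UMIs per Ccl3 UMI after PBS (1.25 to 1.30), and 1.54 (1.51 to 1.57), 2.55 (2.50 to 2.60) and 2.73 (2.63 to 2.84) at the later times in order. By level, the macrophage gate of day 7 was above that of PBS for Ccl4 and below it for Ccl3. The mixed gate had 1.22, 1.61, 2.79 and 2.72, and the lymphoid gates 0.538 (0.327 to 0.868), 1.70, 2.85 and 4.75 (3.04 to 7.72), so the order of PBS, day 1 and day 3 was shared by all 3.

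Macrophages that differ by other genes differed in these ligands. Cells with Ly6c2, a gene of recently arrived monocytes, held Ccl5 at 1040 CPM after PBS (21 cells), 1849 on day 1 (56 cells), 1817 on day 3 (628 cells) and 3739 on day 7 (36 cells). Cells of the gate without Ly6c2 held it at 85.9, 258, 1103 and 370 CPM. Cells with the scavenger receptor gene Cd163 or with Folr2, both taken to mark resident-like macrophages, were lower in every library, at 43.8, 86.9, 602 and 138 CPM. Ly6c2 cells were 0.283%, 0.819%, 13.3% and 1.33% of kept cells. Without them the day 3 level of Ccl5 was still above PBS, and the PBS library had too few of them for a ratio. Cells with Nos2, which encodes inducible nitric oxide synthase, reached 4824 CPM of Ccl5 on day 1 (27 cells) and 4329 on day 3 (49 cells), while the 3 such cells after PBS held 2 UMIs. Cells with Arg1, which encodes arginase, went from 9.02 CPM (4.12 to 17.1) after PBS to 145, 1026 and 211 CPM.

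For Ccl4 the Ly6c2 cells were at 566, 465, 2371 and 1483 CPM and the Cd163 or Folr2 cells at 485, 425, 1698 and 737. The subsets lay close together after PBS and on day 1, and on days 3 and 7 the Ly6c2 cells were higher. Ccl3 was at 347, 433, 759 and 483 CPM in Ly6c2 cells and at 400, 306, 640 and 313 CPM in Cd163 or Folr2 cells. Ccl3 in Arg1 cells was 235, 273, 548 and 57.6 CPM, the last from 21 UMIs in 49 cells.

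**Figure D4:**
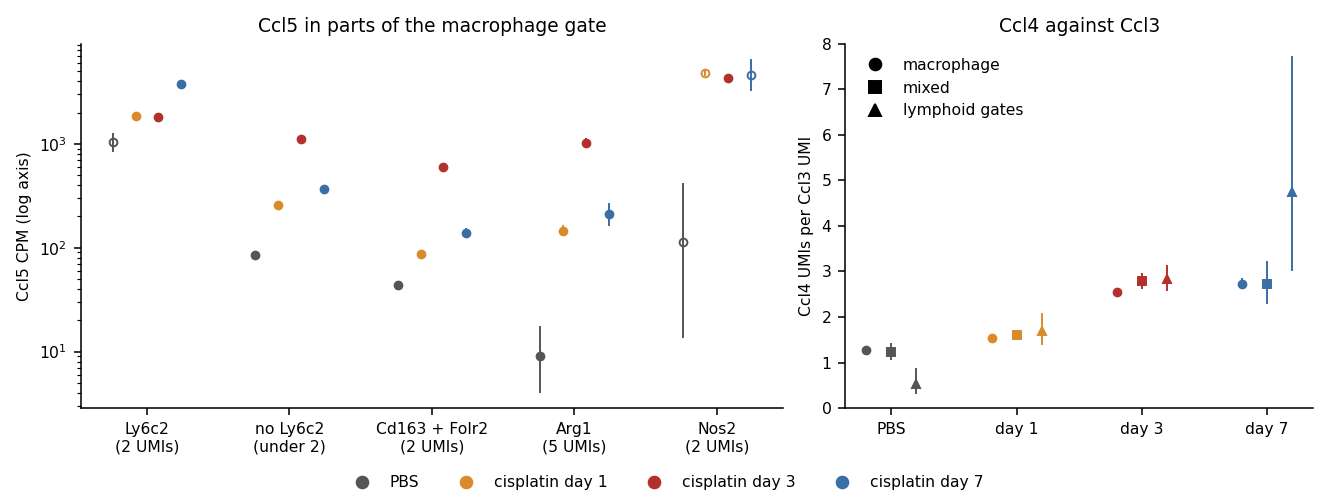
Left, Ccl5 (y axis, CPM, log axis) in parts of the macrophage gate that may overlap, open points where under 30 cells. Right, Ccl4 UMIs per Ccl3 UMI (y axis) in the macrophage, mixed and lymphoid gates of each library, with 95% intervals, which go from 1.28 to 2.73 in macrophages.

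In the lymphoid gates pooled, Xcl1 was at 171 CPM (136 to 212) after PBS. The cisplatin libraries held 147 (130 to 166), 488 (462 to 515) and 1086 CPM (983 to 1197), for days 1, 3 and 7. PBS and day 1 overlapped, and days 3 and 7 stood above both (2.85-fold and 6.34-fold over PBS). Ccl5 was at 510, 769, 1351 and 2201 CPM, or 1.51-fold, 2.65-fold and 4.32-fold the PBS level. In these pooled gates day 7 was the highest library, and in macrophages day 3. The make-up of the pool differed, with NK and ILC1 cells being 25 of 168, 22 of 316, 49 of 577 and 39 of 133 cells, and in regulatory T cells Ccl5 was highest on day 3 (995 CPM against 451 on day 7). The day 7 to day 3 log2 ratio of Ccl5 was 0.70 (0.59 to 0.81) in the lymphoid gates and -1.53 (-1.58 to -1.49) in the macrophage gate. Ccl4 in the lymphoid gates was at 57.8 (38.4 to 83.5), 171, 713 and 304 CPM, and Ccl3 at 107, 100, 251 and 64.0 CPM. A CD8 T cell held 362 of the 1903 lymphoid Ccl4 UMIs on day 3, and without the top cell of each library the fold over PBS was 11.2 in place of 12.3.

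These lymphoid values depend on how many macrophage transcripts a lymphocyte may carry. The median share of macrophage-marker UMIs in the gated cells was 0.546%, 0.642%, 0.307% and 0.464%. With no limit on it, the Ccl4 log2 ratio of the lymphoid gates went from 1.56 to 0.32 on day 1, from 3.63 to 1.43 on day 3 and from 2.40 to 0.50 on day 7. That of Xcl1 on day 7 went from 2.67 to 1.95. When the limit was lowered to 0.5%, the Ccl5 log2 ratio on day 1 went from 0.59 to -0.25. That of Ccl3 then went from -0.10 to 1.22 on day 1 and from -0.74 to 0.46 on day 7, so its direction on both days depends on the limit. The part of macrophage RNA in the lymphoid Ccl3 and Ccl4 values was not tested.

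NK and ILC1 cells, gated on at least 2 UMIs of Ncr1 or Klrb1c and under 2 Cd3 UMIs, were the highest source of Xcl1 per UMI. They held it at 875 CPM after PBS (25 cells), 1166 on day 1 (22 cells), 2333 on day 3 (49 cells) and 2584 on day 7 (39 cells). Both later intervals (2172 to 2503 and 2316 to 2873) lay above both earlier ones (685 to 1102 and 982 to 1374), while PBS overlapped with day 1 and day 3 with day 7. Without its top cell, which held 97 UMIs, the day 7 level was 1906 CPM (1674 to 2161). PBS and day 1 have under 30 such cells, so no ratio is given. Xcl1 was detected in 80.9% of the thinned NK and ILC1 cells on day 3 and in 55.6% on day 7. The same cells held Ccl5 at 644, 1100, 883 and 3047 CPM, Ccl4 at 146, 32.8, 1278 and 638 CPM and Ccl3 at 72.9, 148, 476 and 129 CPM. These rest on 12, 4, 424 and 84 UMIs for Ccl4 and on 6, 18, 158 and 17 for Ccl3. Other T cells held Xcl1 at 35.3, 119, 344 and 226 CPM, and gamma-delta T cells at 38.6, 187, 294 and 1254 CPM. The first gamma-delta T value came from 1 UMI in 13 cells. The last came from 29 UMIs in 10 cells and was at 457 CPM without its top cell. CD8 T cells, the cytotoxic lymphocytes, held Xcl1 at 23.6, 195 and 562 CPM, Ccl5 at 1369, 1581 and 5943 CPM and Ccl4 at 552, 1810 and 414 CPM on days 1, 3 and 7 (31, 64 and 11 cells), with 1 such cell after PBS. Without its top cell, Ccl4 in CD8 T cells was at 245 CPM on day 1 and 1057 CPM on day 3. Regulatory T cells, which restrain immune responses, held 1, 4, 3 and 0 Xcl1 UMIs in 54, 120, 148 and 30 cells, so their Xcl1 was near the limit of detection in every library. Their Ccl5 was at 305, 461, 995 and 451 CPM. With no limit on macrophage markers, their Ccl5 log2 ratio to PBS went from 0.597 to -0.636 on day 1. On day 3 it went from 1.706 to 0.609 and on day 7 from 0.563 to -0.346.

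Xcl1 was concentrated in few cells. Cells with at least 5 Xcl1 UMIs, a limit set after the values were seen, numbered 31, 83, 132 and 47 and held 68.4%, 75.2%, 88.2% and 83.9% of the library's Xcl1. Of these cells, 28, 82, 129 and 46 also held Nkg7, a gene of cytotoxic granules, 16, 57, 82 and 36 held Ncr1 or Klrb1c, and 4, 38, 57 and 13 held a Cd3 gene. Thy1 was seen in 12, 64, 103 and 34 of them and Il7r in 4, 40, 32 and 3. On day 7 a single ungated cell held 287 of the 1108 Xcl1 UMIs (25.9%). Without the top cell of each library, Xcl1 over all kept cells was at 8.98, 20.9, 82.2 and 53.3 CPM, or 2.33-fold, 9.15-fold and 5.94-fold the PBS level. In the macrophage gate Xcl1 had 54, 145, 82 and 58 UMIs (1.29, 3.397, 4.32 and 5.30 CPM), and thinned detection of 0.116%, 0.540%, 0.467% and 0.622% against 0.266%, 1.53%, 1.79% and 1.53% for Nkg7. Its UMIs per UMI of the 3 lymphoid genes were 0.155, 0.141, 0.0929 and 0.259 there and 0.141, 0.109, 0.182 and 0.290 in the lymphoid gates, so in macrophages Xcl1 per lymphoid UMI was close to that of the lymphoid gates or, on day 3, below it. The macrophage gate leaves out cells with a Cd3 or NK UMI, which can lower its detection of lymphoid genes.

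Day 3 had the best filled gates, and the order of the levels is given there. For Xcl1, NK and ILC1 cells came first, then other T (344 CPM) and gamma-delta T (294), which overlapped, then the mixed gate (229) and CD8 T (195), which also overlapped. For Ccl5, migratory dendritic cells were first at 4963 CPM (4767 to 5165), followed by CD8 T (1581), gamma-delta T (1575) and other T (1531), whose intervals overlapped, and by the mixed gate (1314) and macrophages (1261). Migratory dendritic cells were also first after PBS (2913 CPM) and second to CD8 T cells on day 7, where only 2 of them were seen. For Ccl4, CD8 T cells (1810, 1690 to 1935) and macrophages (1791, 1772 to 1810) overlapped, and the mixed gate (1302) and NK and ILC1 cells (1278) came next. The CD8 T level rests on the cell with 362 of its 853 Ccl4 UMIs, and without it the gate was at 1057 CPM (965.5 to 1155), below macrophages and the mixed gate. Without its top cell, Xcl1 in CD8 T cells was likewise at 124 CPM. For Ccl3, macrophages stood first at 703 CPM, and CD8 T (535), NK and ILC1 (476) and mixed cells (467) overlapped with their neighbours.

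Ccr1, the receptor, was mainly a transcript of macrophages, and its range from lowest to highest library was narrower than that of the ligands. On day 1, however, its log2 ratio to PBS in macrophages (0.62) was larger in size than those of Ccl3 (-0.155) and Ccl4 (0.113). In the macrophage gate Ccr1 was at 118 CPM (115 to 121) after PBS and at 181 (177 to 185), 189 (183 to 195) and 123 CPM (116 to 130) for the cisplatin days in order. The intervals of days 1 and 3 overlapped and both stood above PBS (log2 ratios 0.62 and 0.68), and day 7 did not differ from PBS beyond counting error (0.06, -0.03 to 0.14). It was detected in 20.4%, 28.5%, 27.6% and 19.0% of the thinned cells. Ly6c2 cells held it at 110, 333, 218 and 155 CPM, Cd163 or Folr2 cells at 121, 159, 112 and 137 CPM, and Arg1 cells at 117, 266, 352 and 175 CPM. On day 3 the Cd163 or Folr2 cells were at the PBS level of the gate, and the Arg1 cells were well above it. Thinned cells with Ccl3 had Ccr1 in 22.6%, 30.04%, 28.6% and 19.1% and cells without Ccl3 in 19.3%, 27.8%, 26.7% and 19.0%. Ccr1 was thus detected at close to the same rate with and without Ccl3, with the widest gap after PBS.

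Lymphocytes held little Ccr1. The lymphoid gates were at 66.0, 43.3, 65.9 and 24.0 CPM, and thinned detection was 8.91%, 7.77%, 8.25% and 2.25%. NK and ILC1 cells had 4, 1, 12 and 0 Ccr1 UMIs, and the 0 on day 7 allows up to 22.8 CPM. Migratory dendritic cells were at 34.8, 15.3 and 8.24 CPM, and the 2 such cells on day 7 held 0 UMIs, which allows up to 679.7 CPM. Regulatory T cells were at 115 (67.1 to 184.5), 69.9, 79.7 and 58.8 CPM, from 17, 40, 45 and 6 UMIs. After PBS they overlapped with macrophages (118 CPM). CD8 T cells were at 37.8 CPM on day 1 and 97.6 CPM (71.45 to 130) on day 3, from 8 and 46 UMIs, with 0 UMIs on day 7. The part of macrophage RNA in these values was not tested. CD3-negative cells with Thy1 or Il7r and at most 1% macrophage markers held Ccr1 at 204 CPM (148 to 274) on day 1 (24 cells) and 193 CPM (151 to 244) on day 3 (61 cells), where macrophages were at 181 and 189 CPM. After PBS and on day 7 there were 10 and 3 such cells. Cells with the conventional dendritic markers numbered 0, 1, 0 and 0, and Xcr1 had 4, 8, 11 and 1 UMIs in the macrophage gate, so no population carrying the receptor of Xcl1 was present in numbers that allow a comparison.

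Cell shares and levels both changed between libraries, and each fold over all cells was recomputed with 1 of them held at the PBS value. The cells were taken in 5 classes (macrophage, mixed, ungated, the lymphoid gates as one class, and all others), so a changed make-up of the lymphoid class counts as a change of level. For Ccl5 on day 3 the levels alone gave 12.5-fold and the class mix alone 1.87-fold, beside the observed 12.9-fold. For Ccl4 on day 3 these were 3.48-fold and 0.876-fold beside 3.1-fold, and for Ccr1 on day 3 they were 1.67-fold and 0.901-fold beside 1.5-fold. Xcl1 differed from the other genes. On day 1 its levels alone gave 0.924-fold and the class mix alone 2.37-fold beside the observed 2.24-fold, on day 3 they gave 2.46-fold and 3.29-fold beside 8.73-fold, and on day 7 4.41-fold and 1.78-fold beside 7.40-fold. A single ungated cell held 287 of the 508 Xcl1 UMIs of the ungated class on day 7. The 4.41-fold of the levels includes this cell and was not recomputed without it. Fewer cells of a type in the tumour and fewer passing the sort cannot be told apart in these shares. The gates also use fixed UMI limits, and median depth per cell ran from 5039 UMIs (day 7) to 8769 (day 1). The mixed class held 1.60% of UMIs after PBS and 11.4% on day 1. Its median depth on day 1 was 11311 UMIs per cell, against 3870 in the lymphoid gates (7399 and 2228 after PBS). The part of depth, doublets and free RNA in the class mix was not tested.

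**Figure D5:**
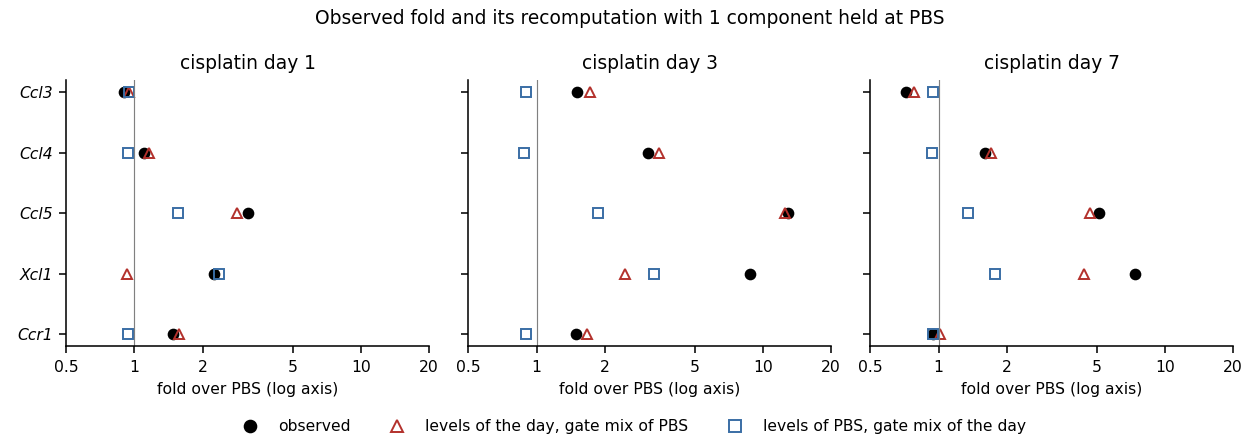
Observed fold over PBS of each gene over all kept cells (filled points, x axis, log axis) for the 3 cisplatin days, and the fold with only the levels within the 5 classes of cells (triangles) or only the class mix (squares) taken from that day. For Ccl3, Ccl4, Ccl5 and Ccr1 the triangles lie close to the observed fold, and for Xcl1 on day 1 the square does. The day 7 Xcl1 triangle includes a single ungated cell with 287 of the 1108 UMIs.

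Of 23 related genes (ligands of the same receptors, other receptors, signalling genes and transcription factors), 21 had enough UMIs in macrophages on days 1 and 3 and 20 on day 7. At 2-fold, 2, 6 and 3 of them were higher and 0, 2 and 1 lower on days 1, 3 and 7, beside 4.55%, 7.77% and 5.58% of all genes higher and 2.37%, 7.76% and 5.37% lower. Among ligands, Ccl6 was at 46.8, 167, 160 and 140 CPM. Ccl7, which also binds Ccr1, was at 598, 573, 1235 and 2010 CPM, highest on day 7 where Ccl3 was lowest. Ccl8 was at 322, 644, 691 and 472 CPM, and Ccl24, which draws eosinophils, at 3.49, 3.68, 0.684 and 1.28 CPM. Among receptors, Ccrl2, a receptor that presents chemerin without signalling, was at 143, 162, 405 and 165 CPM, and Ccr3, a receptor of eosinophils, had 46, 76, 10 and 10 UMIs (1.10, 1.78, 0.526 and 0.914 CPM). The 7 signalling genes held 0 that reached 2-fold, which at these shares of all genes is no result about them. Among them Rgs1, a brake on G protein signalling, was at 797, 762, 1528 and 1168 CPM. Among transcription factors, Irf1 was at 29.9, 58.5, 131 and 36.9 CPM and Rel, an NF-kB subunit, at 101.3, 143, 274 and 72.5 CPM, both highest on day 3 as were Ccl3, Ccl4 and Ccl5. They were the 2 of the 6 factors at least 2-fold higher on day 3, beside 7.77% of all genes. A link to the ligands was not tested. Klf13, a factor known to act on Ccl5 in T cells, was at 114.5, 118, 140 and 288 CPM, highest on day 7.

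Across 26 profiles of gates and libraries with at least 30 cells, the genes with profiles most like each member were ranked by Pearson's r over 10854 genes, as a description of profiles that share libraries and free RNA. For Ccl3 the first was Ccl4 (0.848), followed by Sh3bp2 (0.842). For Ccl4 they were Lgals3bp (0.861), Fam26f (0.857) and Ccl3 (0.848). For Ccl5 they were Epsti1 (0.90), Sp110 (0.878) and Serpinb9 (0.862), of which the first and second are known as interferon-induced genes. For Xcl1 they were the NK receptor genes Klre1 (0.936), Klra7 (0.934) and Klra1 (0.928). For Ccr1 they were Havcr2 (0.911), which encodes the receptor TIM-3, and Fcgr1 (0.891), a macrophage gate gene. By Spearman's rho the first gene was March1 for Ccl3 (0.850), Fam26f for Ccl4 (0.898), Epsti1 for Ccl5 (0.927), Klre1 for Xcl1 (0.937) and Ucp2 for Ccr1 (0.916).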

How the data were processed

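The authors deposited unnormalized UMI counts for each of 4 droplet libraries (10x 3' chemistry per the labels' protocols), on mm10. Cell Ranger 3.1.0 and Seurat 3.1.2 are listed in the submitters' processing notes, with roles not given in the sources used here. Barcodes needed 500 or more genes and a mitochondrial share of 10% or less. Scrublet (scanpy 1.11.5) marked 0 doublets at its automatic threshold, so the highest scores were removed at 0.8% per 1000 barcodes (650, 643, 249 and 66 cells). Cells were gated by marker UMIs. Counts were summed per gate and library and divided by total UMIs (CPM), with exact Poisson, Clopper-Pearson or conditional binomial intervals, and the scripts were tested on simulated data. Ratios needed 30 cells in both libraries. TMM (edgeR 4.0.16) and DESeq2 1.42.0 size factors, other filters, gates and thinning depths were tried. Total counts were 59915831, 82493626, 36587207 and 16153484 UMIs. Members, lists and gates were chosen with earlier results of these data known. The genes named are the members, 23 related genes and the most similar profiles, and 1 gene and 1 sequence of the list are not reported here.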

Additional observations from a re-analysis of the deposited data

How the results depend on the processing

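Over the alternatives in filters, doublets, gate and scaling, the Ccl5 log2 ratio over all kept cells and in macrophages stayed above 1 on every day, as did that of Ccl4 on day 3, and no ratio of the 5 genes in these cells changed direction. Of the 5 genes at 2-fold or more on day 1, 1 remained (Ccl5) over all kept cells with doublets kept, and 1 in macrophages with doublets kept or with a mitochondrial limit of 20%. On day 3, 5 reached 1.5-fold in macrophages, Xcl1 among them on 82 UMIs, beside 15.1% of all genes in the main setting. The share of UMIs in the macrophage gate was 76.6% (Ccl3), 74.9% (Ccl4), 57.0% (Ccl5), 6.92% (Xcl1) and 74.7% (Ccr1) with doublets kept, 72.2%, 69.8%, 51.7%, 5.06% and 69.2% with macrophage markers above 2%, and 87.1%, 85.7%, 67.6%, 15.0% and 85.2% when 1 Cd3 or NK UMI was allowed. With the mitochondrial limit of 20% it was 78.7% (Ccl3) and 76.8% (Ccl4). The Ccl4 log2 ratio of regulatory T cells on day 7 (1.02, from 7 and 5 UMIs) was -0.025 with no limit on macrophage markers. The Xcl1 log2 ratio on day 1 over all kept cells ranged from 0.96 (doublets kept) to 1.76 (at least 1000 genes), and in macrophages from 0.56 to 1.85. On day 7 it reached 4.32 in macrophages when 1 Cd3 or NK UMI was allowed (1.19 with doublets kept). The 111 ungated day 7 cells with 1 such UMI and over 1% macrophage markers held 328 Xcl1 UMIs, against 58 in the macrophage gate. The ungated cell with 287 Xcl1 UMIs lies among them, as the other ungated classes held only 80, 51 and 49. The 4.32 was not recomputed without it. The cause was not tested. No paired analysis was possible because each group has 1 library. Small lymphoid gates and 1 library per group limit the precision.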
